A study of Mus musculus with 36 samples.

Results

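The interaction between the ∆Ig3-MuSK genotype and the muscle was measured gene by gene, as the difference between ∆Ig3-MuSK and WT in the soleus minus the same difference in the tibialis anterior (TA). All 36 libraries of the series entered this contrast, 9 in each of the 4 groups, and the count tables of both muscles were joined by Ensembl gene ID. Of 51912 IDs present in both tables, 20841 had enough counts to be tested. A positive interaction means that the soleus had the larger log2 fold change (∆Ig3-MuSK over WT), and a negative interaction means that the TA had.

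Both muscles were taken from WT and ∆Ig3-MuSK male C57BL/6 mice aged 3 months. ∆Ig3-MuSK mice carry a CRISPR-Cas9 deletion of the Musk exons that encode the immunoglobulin-like domain Ig3, on both alleles and in every cell. The deletion is therefore neither restricted to muscle nor induced in the adult. Each library is RNA-seq of whole muscle without strand information, so that reads of a gene and of an antisense partner cannot be told apart.

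MuSK is a receptor tyrosine kinase of the postsynaptic membrane that organises the neuromuscular junction together with agrin and LRP4. Its Ig3 domain binds bone morphogenetic proteins (BMPs), and MuSK acts in this role as a BMP co-receptor. The TA is a fast muscle of glycolytic fibres, whereas the soleus is a slow and oxidative postural muscle. A genotype effect that differs between these muscles is read from the interaction term rather than from which genes pass a threshold in one muscle and not in the other.

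Library totals ranged from 43492062 to 78660422 counts. The labelled muscles were checked against fibre type genes. Summed over the list of slow fibre genes, CPM (counts at a library size made equal with TMM factors) ranged from 32041 to 44159 in the soleus libraries and from 2858 to 7239 in the TA libraries. In the TA, the first principal component of log2 CPM held 47.5% of the variance, with WT TA libraries 3 and 5 at scores of -40.0 and -58.3. The other 16 TA libraries lay between -14.5, for ∆Ig3-MuSK TA library 3, and 16.9. In the soleus, the first component held 27.8%, and ∆Ig3-MuSK soleus library 8 stood at 34.4, with the others from -26.9 to 24.0. All libraries were kept, and the counts of the lists that differed most are also given without WT TA libraries 3 and 5. P-values measure the spread among these samples, and the labels do not state whether a TA and a soleus came from the same animal.

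Musk itself (chr4:58285960-58374303, plus strand, GRCm38) had a similar estimated effect of the genotype in both muscles. In the TA it ranged from 2.87 to 5.58 CPM (median 3.81) in WT and from 2.62 to 4.01 CPM (median 3.08) in ∆Ig3-MuSK. In the soleus it ranged from 12.5 to 18.4 CPM (median 14.7) in WT and from 8.07 to 17.5 CPM (median 10.5) in ∆Ig3-MuSK. The groups overlapped in both muscles, with 2 TA and 7 soleus libraries of the mutant below every WT library. The log2 fold change was -0.43 in the soleus (edgeR adjusted p = 0.0654) and -0.47 in the TA (edgeR adjusted p = 0.0437), which gave an interaction of 0.04 with a standard error of 0.18 (edgeR adjusted p = 0.915). The difference between the muscles was smaller than its standard error. Reads are counted over the whole gene, and the deleted exons are not seen separately.

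No gene passed the interaction test of edgeR at an adjusted p under 0.05 in the fit of group means without a block. By its quasi-likelihood test, adjusted after Benjamini and Hochberg, the count was 0 (0%), and the smallest adjusted p was 0.0652. At an adjusted p under 0.1 there were 184 genes (0.883%), and at an unadjusted p under 0.05 there were 5193 (24.9%), 2850 with a positive interaction (13.7%) and 2343 with a negative one (11.2%). Other tools called genes in the same contrast. DESeq2 called 1049 genes at an adjusted p under 0.05, of which 753 were positive, and limma-voom with sample quality weights called 1352. With edgeR and a single library left out, the count reached 1484 without WT TA library 9 and 1055 without ∆Ig3-MuSK TA library 3, and was at most 99 without any other. Without WT TA libraries 3 and 5, edgeR called 0 genes, with a smallest adjusted p of 0.161, and 2938 had an unadjusted p under 0.05, 1427 positive (6.85%) and 1511 negative (7.25%).

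The effects within each muscle in the same fit were 366 genes in the soleus (1.76%), 156 of them higher in ∆Ig3-MuSK (0.749%) and 210 lower (1.01%), and 982 genes in the TA (4.71%), 624 higher (2.99%) and 358 lower (1.72%), all at an adjusted p under 0.05. Without WT TA libraries 3 and 5 these counts were 594 for the soleus and 6 for the TA. An adjusted p under 0.05 in the TA given for a gene below belongs to this set of calls.

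Among the 5193 genes with an unadjusted interaction p under 0.05, the effect of the genotype was most often past an unadjusted p of 0.05 in the TA and not in the soleus. This held for 2905 genes (55.9%), while 1286 genes (24.8%) showed the reverse. In 4723 genes (90.9%) the signs of both effects differed. Selecting genes by the difference between the effects favours differing signs in itself, so such a share does not count opposite responses. Without WT TA libraries 3 and 5 the order was turned, with 751 of 2938 genes (25.6%) past that level in the TA alone and 1435 (48.8%) in the soleus alone, and the signs differed in 2629 (89.5%). With all libraries, effects of opposite sign that each had an unadjusted p under 0.05 were seen for 229 genes (1.1% of genes tested), 133 of which were higher in the soleus and lower in the TA (0.638%) and 96 the reverse (0.461%). Without WT TA libraries 3 and 5 there were 95, of which 36 were higher in the soleus. By comparison, 374 genes (1.79%) passed in both muscles in the same direction, of which 5 also had an unadjusted interaction p under 0.05.

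**Figure D1:**
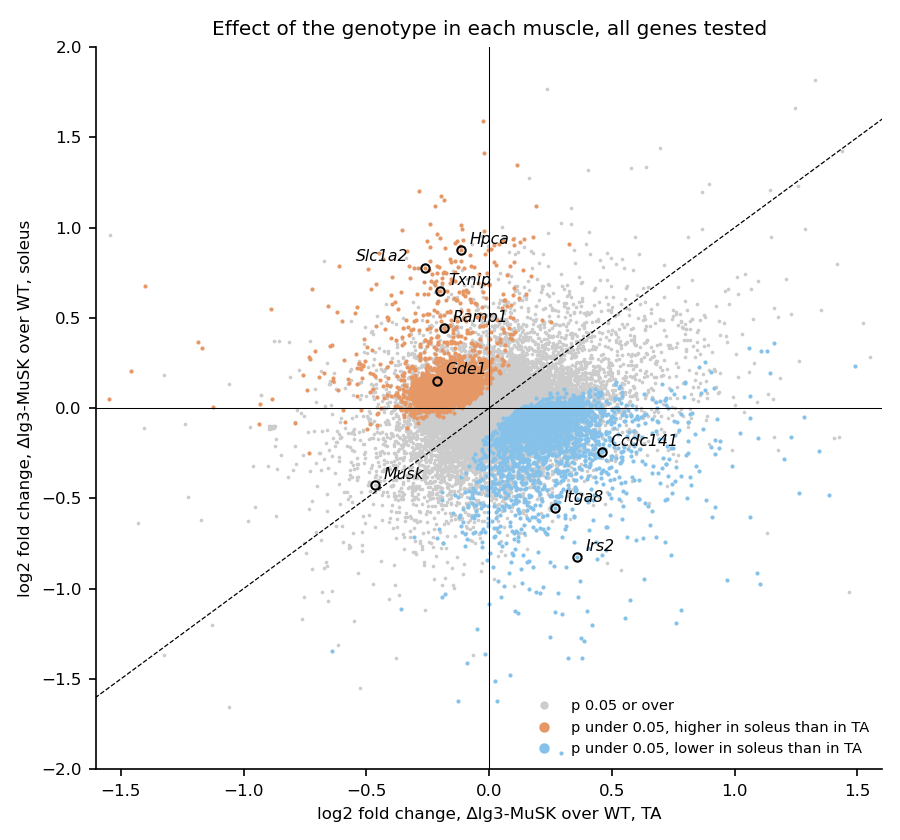
Log2 fold change (∆Ig3-MuSK over WT) in the TA on the x axis and in the soleus on the y axis, for each of the 20841 genes tested, with 31 genes outside the axes. Colour marks genes with an unadjusted interaction p under 0.05 (2850 positive, 2343 negative), the dashed line marks equal effects, and Musk lies on that line.

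Slc1a2, Hpca and Ramp1 had the smallest interaction p-values, all positive. Slc1a2 (chr2:102658659-102790784, plus strand) encodes the glutamate transporter GLT-1, best known from astrocytes. In the soleus it ranged from 1.03 to 1.63 CPM (median 1.44) in WT and from 1.28 to 3.32 CPM (median 2.61) in ∆Ig3-MuSK. In the TA the ranges were 1.27 to 2.29 CPM (median 1.65) in WT and 1.17 to 1.75 CPM (median 1.43) in ∆Ig3-MuSK. In the soleus 7 of 9 mutant libraries lay above every WT library, and mutant libraries 7 and 9 lay within the WT range. Slc1a2 rose by 0.78 on the log2 scale in the soleus (edgeR adjusted p = 0.00261) against -0.26 in the TA (edgeR adjusted p = 0.187), and its interaction was 1.04 with a standard error of 0.19 (edgeR adjusted p = 0.0652). Its counts were low, at 50 to 186 per library.

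Hpca (chr4:129111570-129122036, minus strand) encodes hippocalcin, a neuronal calcium sensor. It ranged from 0.441 to 0.909 CPM (median 0.765) in WT soleus and from 0.916 to 1.74 CPM (median 1.38) in ∆Ig3-MuSK soleus, and from 1.03 to 1.68 CPM (median 1.24) and 0.981 to 1.71 CPM (median 1.19) in the TA groups. All 9 mutant soleus libraries were above all WT soleus libraries, whereas the TA groups overlapped throughout. The fold change on the log2 scale was 0.87 in the soleus (edgeR adjusted p = 0.00123) and -0.12 in the TA, with an interaction of 0.99 and a standard error of 0.19 (edgeR adjusted p = 0.0652).

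Ramp1 (chr1:91179822-91225196, plus strand), the subunit that turns the calcitonin receptor-like receptor into a receptor for CGRP, was expressed far higher. It ranged from 34.4 to 67.2 CPM (median 44.8) in WT soleus and from 58.0 to 74.1 CPM (median 60.8) in ∆Ig3-MuSK soleus. In the TA the order was turned, with 54.6 to 79.9 CPM (median 59.1) in WT and 48.6 to 59.9 CPM (median 55.6) in ∆Ig3-MuSK. The groups overlapped in both muscles, with 3 mutant soleus libraries above all WT and 3 mutant TA libraries below all WT. Ramp1 rose by 0.44 in the soleus (edgeR adjusted p = 0.00502) against -0.18 in the TA, and its interaction was 0.63 with a standard error of 0.12 (edgeR adjusted p = 0.0652). Leaving out single libraries kept the interactions of these 3 genes positive, at 0.97 to 1.12 for Slc1a2, 0.92 to 1.06 for Hpca and 0.58 to 0.71 for Ramp1, and without WT TA libraries 3 and 5 they were 1.04, 0.97 and 0.55.

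Among the positive genes of next smallest p were Det1, Gde1, Mlx and Neu2, each at an edgeR adjusted interaction p of 0.0978. Det1, an adaptor of a ubiquitin ligase, rose in the soleus by 0.21 (edgeR adjusted p = 0.00741), from a median of 13.4 to 16.0 CPM, with 5 mutant libraries above all WT. Neu2, a cytosolic sialidase, rose there by 0.44 (edgeR adjusted p = 0.0165), from a median of 4.69 to 7.03 CPM. Gde1, a glycerophosphodiester phosphodiesterase, had an interaction of 0.37 and fell by 0.21 in the TA (edgeR adjusted p = 0.0404), from 39.4 to 58.8 CPM (median 45.7) to 38.0 to 43.3 CPM (median 40.5). Its log2 fold change without WT TA libraries 3 and 5 was -0.13 in the TA (edgeR adjusted p = 0.295) and 0.14 in the soleus.

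**Figure D2:**
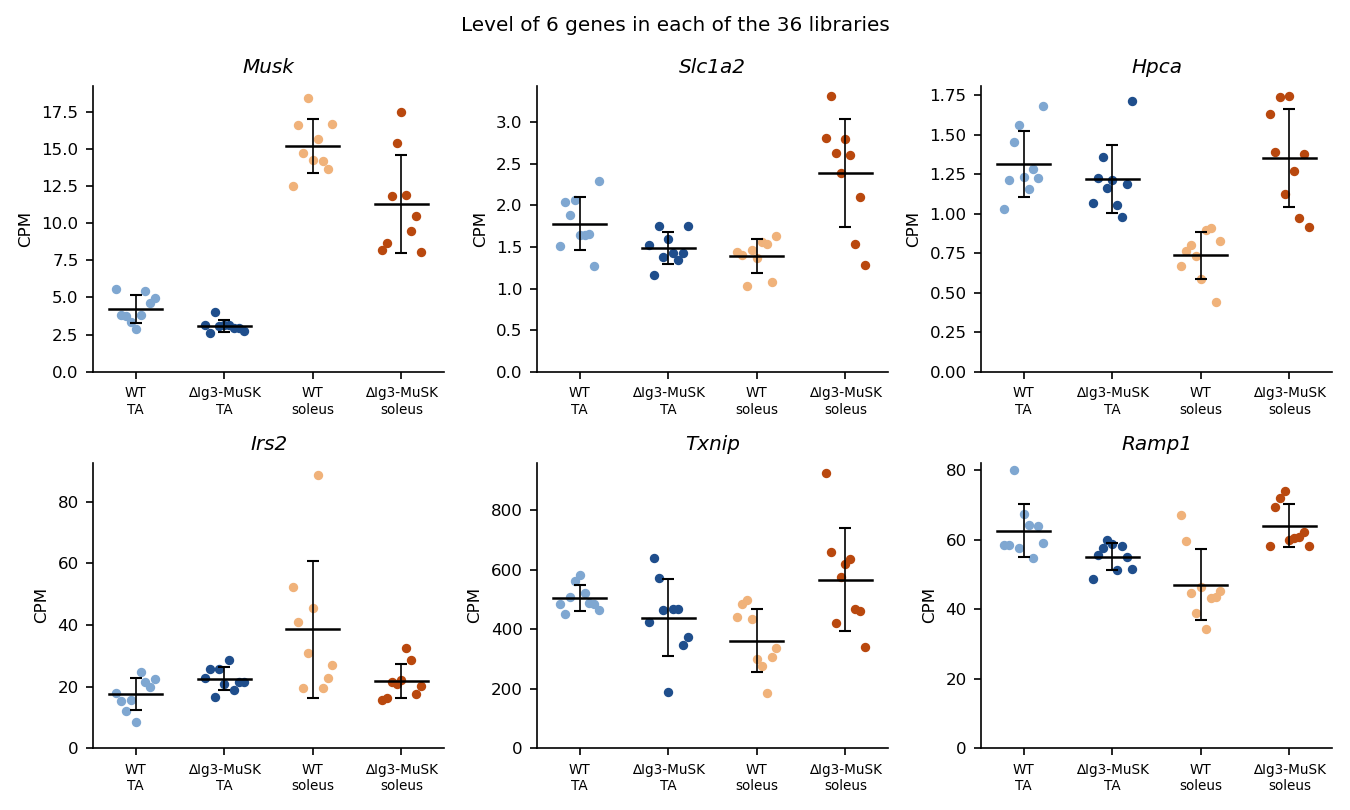
CPM of Musk, Slc1a2, Hpca, Irs2, Txnip and Ramp1 in each of the 36 libraries by group, with the mean and SD (n = 9) as bars. For Hpca all mutant soleus points lie above the WT soleus points, for Slc1a2 mutant soleus libraries 7 and 9 lie within the WT range, and for Irs2 a single WT soleus library reaches 88.8 CPM.

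Slc1a2 and Hpca are known from glia and neurons, and a list of 20 brain cell markers, which holds Slc1a2, had the largest median interaction of the lists apart from that of adipocyte markers. A positive interaction with an unadjusted p under 0.05 was found for 13 of the 20 markers and a negative one for 0, against 13.7% and 11.2% of all genes. The median interaction of the list was 0.73, compared with -0.002 over all genes tested. In the soleus 16 of 20 were higher at an unadjusted p under 0.05 (7.22% of all genes), 9 of them at an adjusted p under 0.05 (0.749%), with a median of 0.66, and in the TA 0 passed in either direction, with a median of -0.06. The count of positive interactions was 14 without WT TA libraries 3 and 5 and 13 to 15 with any single library left out.

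The brain markers covered astrocytes, neurons and oligodendrocytes. Mobp, a myelin protein of oligodendrocytes, ranged from 0.356 to 0.620 CPM (median 0.420) in WT soleus and 0.447 to 1.07 CPM (median 0.823) in ∆Ig3-MuSK soleus, and its interaction was 0.98 (edgeR adjusted p = 0.0978). Gad2, which makes the transmitter GABA, ranged from 0.241 to 0.606 CPM (median 0.440) and 0.405 to 1.23 CPM (median 0.960), with an interaction of 1.34 (edgeR adjusted p = 0.0978). Mobp exceeded all WT libraries in 7 and Gad2 in 8 of the 9 mutant soleus libraries. Gria2, a glutamate receptor subunit, had an interaction of 0.94 and Gfap, the astrocyte filament protein, one of 0.88. Mobp and Gad2 were also present in the WT muscles, at under 1 CPM.

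The list was then followed library by library. Its mean log2 CPM was -0.17 to 0.24 (median 0.14) in WT soleus and 0.01 to 0.94 (median 0.76) in ∆Ig3-MuSK soleus. In the TA it was 0.30 to 0.76 (median 0.49) in WT and 0.32 to 0.53 (median 0.43) in ∆Ig3-MuSK. Mutant soleus libraries 7 and 9, at 0.12 and 0.01, lay within the WT soleus range, and the other 7 lay above it. These same libraries were the ones within the WT range for Slc1a2, which is itself a member of the list. Markers of Schwann cells and myelin of peripheral nerve had 0 of 12 members with an unadjusted interaction p under 0.05 and a median interaction of 0.08. Over all genes the share in either direction was 24.9%. In bulk muscle, more cells of a type and more RNA per cell cannot be told apart, and the part of other cell types in this result was not tested.

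Txnip (chr3:96557957-96561883, plus strand) encodes thioredoxin-interacting protein, an arrestin-like protein that lowers glucose uptake. It is a direct target of the glucose-sensing factors MondoA and ChREBP, which bind as dimers with Mlx at paired E-box-like motifs called carbohydrate response elements. Irs2 (chr8:10984681-11008458, minus strand) encodes an adaptor that carries the signal of the insulin and IGF1 receptors to PI3K and Akt. The RefSeq promoter sequences (GRCm38.p6, the 250 bases before the annotated start, 5′ to 3′ on the strand of the gene) of Txnip, Mlx and Irs2, and of the Txnip relative Arrdc4, are shown because Txnip, Mlx and Irs2 were among the genes of small interaction p and are tied to this sensor or to insulin signalling. Capitals mark the paired motif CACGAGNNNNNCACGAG in Txnip and the E-box CACGTG in the others, searched on both strands.
Txnip chr3:96557707-96557956: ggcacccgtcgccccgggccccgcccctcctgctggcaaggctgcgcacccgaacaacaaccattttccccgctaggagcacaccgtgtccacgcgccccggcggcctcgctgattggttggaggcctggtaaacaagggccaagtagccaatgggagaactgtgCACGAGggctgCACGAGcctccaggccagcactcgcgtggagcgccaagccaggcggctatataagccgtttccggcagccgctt
Mlx chr11:101087040-101087289: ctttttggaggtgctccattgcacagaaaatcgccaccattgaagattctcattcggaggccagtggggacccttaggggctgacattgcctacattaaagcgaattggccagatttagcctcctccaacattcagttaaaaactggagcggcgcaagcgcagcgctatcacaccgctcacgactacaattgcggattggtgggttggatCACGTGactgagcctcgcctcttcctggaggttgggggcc
Irs2 chr8:11008930-11009179: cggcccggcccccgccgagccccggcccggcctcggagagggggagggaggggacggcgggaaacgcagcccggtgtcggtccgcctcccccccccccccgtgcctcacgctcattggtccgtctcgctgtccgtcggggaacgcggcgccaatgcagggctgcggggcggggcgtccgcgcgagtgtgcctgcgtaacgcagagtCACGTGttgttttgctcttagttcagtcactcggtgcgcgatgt
Arrdc4 chr7:68749239-68749488: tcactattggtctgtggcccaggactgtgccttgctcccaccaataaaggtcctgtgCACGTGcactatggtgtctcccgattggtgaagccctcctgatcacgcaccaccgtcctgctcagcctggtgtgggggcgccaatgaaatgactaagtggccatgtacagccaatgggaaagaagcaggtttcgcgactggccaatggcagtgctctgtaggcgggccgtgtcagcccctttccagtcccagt
The paired motif of Txnip begins 85 bases before the start and occurs in 1 of 32851 RefSeq promoters of this length (0.00304%), while CACGTG occurs in 1978 of them (6.02%). CACGTG begins 40 bases before the RefSeq start of Mlx, 44 before that of Irs2 and 193 before that of Arrdc4. Gene coordinates in the text are those of GENCODE M21, and the RefSeq start of Irs2 lies outside the interval that GENCODE gives for the gene. A match describes the letters and not binding.

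Txnip in the soleus ranged from 185 to 498 CPM (median 336) in WT and from 341 to 922 CPM (median 573) in ∆Ig3-MuSK, with 5 mutant libraries above all WT. In the TA it ranged from 451 to 581 CPM (median 488) in WT and from 191 to 638 CPM (median 466) in ∆Ig3-MuSK, where library 5 was the lowest of the TA libraries. Txnip rose by 0.65 in the soleus (edgeR adjusted p = 0.0454) against -0.20 in the TA (edgeR adjusted p = 0.458). Its interaction was 0.85 with a standard error of 0.25 (edgeR adjusted p = 0.102), and 0.81 without WT TA libraries 3 and 5. An antisense gene, Gm15441, overlaps 606 of the 3123 exonic bases of Txnip and had an interaction of 0.74 (edgeR adjusted p = 0.104), so the reads of both cannot be separated there.

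Mlx, the shared dimer partner, differed in the same direction by a smaller amount. It ranged from 7.62 to 8.47 CPM (median 7.88) in WT soleus and 8.12 to 9.46 CPM (median 8.60) in ∆Ig3-MuSK soleus, with 7 mutant libraries above all WT. In the TA it ranged from 8.08 to 10.3 CPM (median 9.29) and 7.99 to 9.15 CPM (median 8.45). The log2 fold changes were 0.13 in the soleus (edgeR adjusted p = 0.118) and -0.13 in the TA (edgeR adjusted p = 0.0629), and the interaction was 0.26 with a standard error of 0.06 (edgeR adjusted p = 0.0978). Of the 15 genes of the MondoA-ChREBP and Txnip family list, 4 had a positive and 2 a negative interaction at an unadjusted p under 0.05 (13.7% and 11.2% of all genes), with a median of 0.07. These counts were 3 and 1 without WT TA libraries 3 and 5, and 5 and 0 with a median of 0.11 with a trend on transcript length and GC content removed from each library. The other positive members were Klf10, a glucose-responsive repressor, at 1.00, and Txn2, the mitochondrial thioredoxin, at 0.22. The sensors themselves gave -0.24 for Mlxip (MondoA) and -0.29 for Mlxipl (ChREBP), and Arrdc4 gave -0.08.

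Irs2 had the reverse pattern. In the soleus it ranged from 19.6 to 88.8 CPM (median 31.0) in WT and from 15.8 to 32.5 CPM (median 21.0) in ∆Ig3-MuSK, with 3 mutant libraries below all WT. In the TA it ranged from 8.58 to 24.7 CPM (median 17.97) in WT and from 16.6 to 28.6 CPM (median 21.7) in ∆Ig3-MuSK, with 3 mutant libraries above all WT. The groups overlapped in both muscles, and the WT soleus libraries spread more widely than those of any other group. Irs2 fell by 0.83 in the soleus (edgeR adjusted p = 0.0401) against 0.36 in the TA (edgeR adjusted p = 0.277). Its interaction was -1.18 with a standard error of 0.31 (edgeR adjusted p = 0.0978), and it ranged from -1.27 to -0.93 with single libraries left out.

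In the IGF1-Akt-mTOR list, 9 of 36 genes had a negative and 2 a positive interaction at an unadjusted p under 0.05 (11.2% and 13.7% of all genes), with a median of -0.10, and 6 and 2 without WT TA libraries 3 and 5. The negative members included receptors and kinases, such as Igf1r at -0.36, Insr at -0.34, Mtor at -0.30 and its partner Rptor at -0.31. For Insr, the insulin receptor, the larger change was in the TA, where it rose by 0.27 (edgeR adjusted p = 0.0442), from 42.8 to 67.4 CPM (median 61.0) to 55.4 to 81.7 CPM (median 67.7), against -0.08 in the soleus. Without WT TA libraries 3 and 5 its rise in the TA was 0.17 (edgeR adjusted p = 0.356). The positive members were Akt2 at 0.20 and Rps6, a ribosomal protein that the pathway phosphorylates, at 0.32. With the trend on transcript length and GC content removed from each library, 2 were negative and 3 positive, with a median of 0.03, so the sign of the list turned under that setting. In the FoxO list, whose targets the pathway represses, 5 of 24 were negative (11.2% of all genes) and 2 positive (13.7%), with a median of -0.02 that lay between -0.06 and 0.06 with single libraries left out. With the length and GC trend removed 3 were negative and 4 positive, with a median of 0.01, so the sign of this list was not stable. Cblb, a ubiquitin ligase of that list, rose by 0.44 in the TA (edgeR adjusted p = 0.0246), where 8 mutant libraries exceeded all WT, and was at -0.09 in the soleus. Its rise in the TA was 0.39 without WT TA libraries 3 and 5 (edgeR adjusted p = 0.17).

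The negative interactions of smallest p were led by Osbpl8, a lipid transfer protein of membrane contact sites. It ranged from 20.3 to 31.0 CPM (median 25.4) in WT soleus and 19.8 to 24.4 CPM (median 21.5) in ∆Ig3-MuSK soleus. In the TA it ranged from 11.2 to 14.1 CPM (median 12.1) in WT and 12.6 to 16.1 CPM (median 14.3) in ∆Ig3-MuSK. The mutant was below all WT in 3 soleus libraries and above all WT in 6 TA libraries. The log2 fold changes of -0.22 and 0.20 gave an interaction of -0.43 with a standard error of 0.09 (edgeR adjusted p = 0.0978), and -0.40 without WT TA libraries 3 and 5.

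Afap1l2, an adaptor of Src signalling, separated the genotypes fully in the soleus. It ranged from 2.91 to 4.30 CPM (median 3.52) in WT and from 1.77 to 2.90 CPM (median 2.51) in ∆Ig3-MuSK, so all 9 mutant libraries were below all WT. It fell by 0.53 in the soleus (edgeR adjusted p = 0.0034) against 0.10 in the TA, with an interaction of -0.63. Itga8, an integrin subunit of fibronectin-binding cells, fell by 0.56 in the soleus (edgeR adjusted p = 0.0169), from a median of 3.59 to 2.41 CPM, with an interaction of -0.82, and shares 372 exonic bases with E030013I19Rik. Micall1, an endosomal recycling protein, fell by 0.33 in the soleus (edgeR adjusted p = 0.0397), with an interaction of -0.57, and shares 2229 of 8341 exonic bases with 1700088E04Rik.

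For others of the 8, Ccdc141, Slc12a7, Mir6935 and Ablim1 among them, the TA effect had an adjusted p under 0.05 with all libraries. It had not without WT TA libraries 3 and 5. Ccdc141, a centrosomal coiled-coil protein, rose there by 0.46 (edgeR adjusted p = 0.0328), from 1.43 to 2.75 CPM (median 2.40) to 2.46 to 3.68 CPM (median 2.92), with 7 mutant libraries above all WT and an interaction of -0.71. Slc12a7, a potassium-chloride cotransporter, rose by 0.37 (edgeR adjusted p = 0.0393), with an interaction of -0.63. Mir6935 rose by 0.54 (edgeR adjusted p = 0.0407), with an interaction of -1.01, but all 64 bases of this microRNA gene lie inside an exon of Actg1 on the same strand, so its reads cannot be told from those of Actg1. Actg1, γ-actin, had an interaction of -0.41 (edgeR adjusted p = 0.102). With those libraries left out, the log2 fold changes in the TA and the soleus were 0.33 and -0.26 for Ccdc141, 0.23 and -0.28 for Slc12a7 and 0.44 and -0.48 for Mir6935.

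Among genes with opposite effects, Ablim1, an actin-binding LIM protein of the sarcomere, was the most abundant of those named. It ranged from 284 to 511 CPM (median 342) in WT soleus and 259 to 356 CPM (median 302) in ∆Ig3-MuSK soleus, and from 27.9 to 39.1 CPM (median 34.4) and 34.0 to 47.4 CPM (median 43.0) in the TA. The log2 fold changes were -0.24 in the soleus (edgeR adjusted p = 0.142) and 0.28 in the TA (edgeR adjusted p = 0.0487). The reverse pattern was held by Zfp433, a zinc finger protein, at 0.19 and -0.23, by Fn3k, which repairs glycated proteins, at 0.28 and -0.21, and by Asf1a, a histone chaperone, at 0.18 and -0.15. In Zfp433 5 mutant libraries passed the WT range in each muscle, upward in the soleus and downward in the TA. Asf1a shares 1748 of 3638 exonic bases with Mcm9. Without WT TA libraries 3 and 5 the log2 fold changes in the soleus and the TA were -0.25 and 0.21 for Ablim1. They were 0.17 and -0.13 for Zfp433, 0.26 and -0.13 for Fn3k, and 0.17 and -0.10 for Asf1a. The edgeR adjusted p in the TA was then 0.359 for Ablim1 and Zfp433, 0.536 for Fn3k and 0.504 for Asf1a.

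Collagens had the largest share of members with a negative interaction among the lists. Of 19 fibrillar and other collagens, 16 had a negative interaction at an unadjusted p under 0.05 (11.2% of all genes) and 0 a positive one, with a median of -0.65. In the soleus 16 were lower at an unadjusted p under 0.05 (7.92% of all genes), 3 of them at an adjusted p under 0.05, with a median of -0.54, while in the TA 0 passed in either direction and the median was 0.03. Col1a1, the main chain of type I collagen, ranged from 150.3 to 545.8 CPM (median 292) in WT soleus and 44.4 to 225 CPM (median 157) in ∆Ig3-MuSK soleus, with 4 mutant libraries below all WT. Col1a1 fell by 0.96 in the soleus (edgeR adjusted p = 0.0374) against 0.03 in the TA, and its interaction was -0.99 with a standard error of 0.35 (edgeR adjusted p = 0.107). The count of negative collagens was 10 without WT TA libraries 3 and 5, 8 without WT soleus library 7 and 4 with the length and GC trend removed.

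Matrix, matricellular and crosslinking genes behaved likewise, with 12 of 28 negative (11.2% of all genes), 0 positive and a median interaction of -0.47, and 11 negative without WT TA libraries 3 and 5. Thbs1, thrombospondin-1, an activator of latent TGF-β, ranged from 26.6 to 125 CPM (median 41.6) in WT soleus and 4.32 to 30.7 CPM (median 21.5) in ∆Ig3-MuSK soleus, with 8 mutant libraries below all WT. Thbs1 fell by 1.41 in the soleus (edgeR adjusted p = 0.0034) against -0.09 in the TA, for an interaction of -1.33 (edgeR adjusted p = 0.102). Tgfb1, the TGF-β1 ligand itself, fell by 0.38 in the soleus (edgeR adjusted p = 0.0242) against 0.12 in the TA, for an interaction of -0.50. Of the 38 BMP and TGF-β genes, 4 were negative and 1, Car3, positive, the ligands Bmp5 and Bmp6 at -0.41 and -0.35. These shares are to be read against 11.2% and 13.7% of all genes. With the length and GC trend removed 2 were negative and 4 positive, and the median of the list went from -0.07 to 0.02.

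Markers of connective tissue and vessels were set beside these genes. Tendon cell markers summed to 310.9 to 822 CPM (median 562) in WT soleus and 26.8 to 617 CPM (median 376) in ∆Ig3-MuSK soleus, with a median interaction of -0.47 and 0 of 10 with an unadjusted p under 0.05. Of these markers 7 were lower in the soleus at an unadjusted p under 0.05 (7.92% of all genes). Fibro-adipogenic progenitor and macrophage markers had 0 of 12 and 0 of 15 with an unadjusted interaction p under 0.05, with medians of -0.12 and -0.24. Over all genes 24.9% had an unadjusted interaction p under 0.05 in either direction. ∆Ig3-MuSK soleus library 8 stood apart in these lists. It held the lowest tendon sum, 26.8 CPM, against 264 to 617 CPM in the other 8 mutant soleus libraries, and the lowest mean log2 CPM of the collagens, 3.97 against 4.76 to 5.78. Without it the median interactions were -0.31 for tendon markers, -0.58 for collagens (13 of 19 negative) and -0.34 for matrix genes (10 of 28 negative). The part of connective tissue content in the collagen and matrix result was not tested.

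Endothelial markers were negative in 6 of 13, with a median of -0.22, and markers of smooth muscle and pericytes in 4 of 10, with a median of -0.29. Over all genes 11.2% were negative. Eng, the TGF-β co-receptor endoglin, fell by 0.42 in the soleus (edgeR adjusted p = 0.00838) against 0.02 in the TA. Cspg4, the pericyte proteoglycan NG2, had log2 fold changes of -0.33 in the soleus and 0.24 in the TA, for an interaction of -0.57. Adipocyte markers had a median interaction of 0.75, with 1 of 9 positive at an unadjusted p under 0.05 (13.7% of all genes). Blood cell markers had 0 of 7 in either direction (24.9% of all genes) and a median of 0.36. Satellite cell markers had 2 of 10, both negative (11.2% of all genes), and a median of -0.09.

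**Figure D3:**
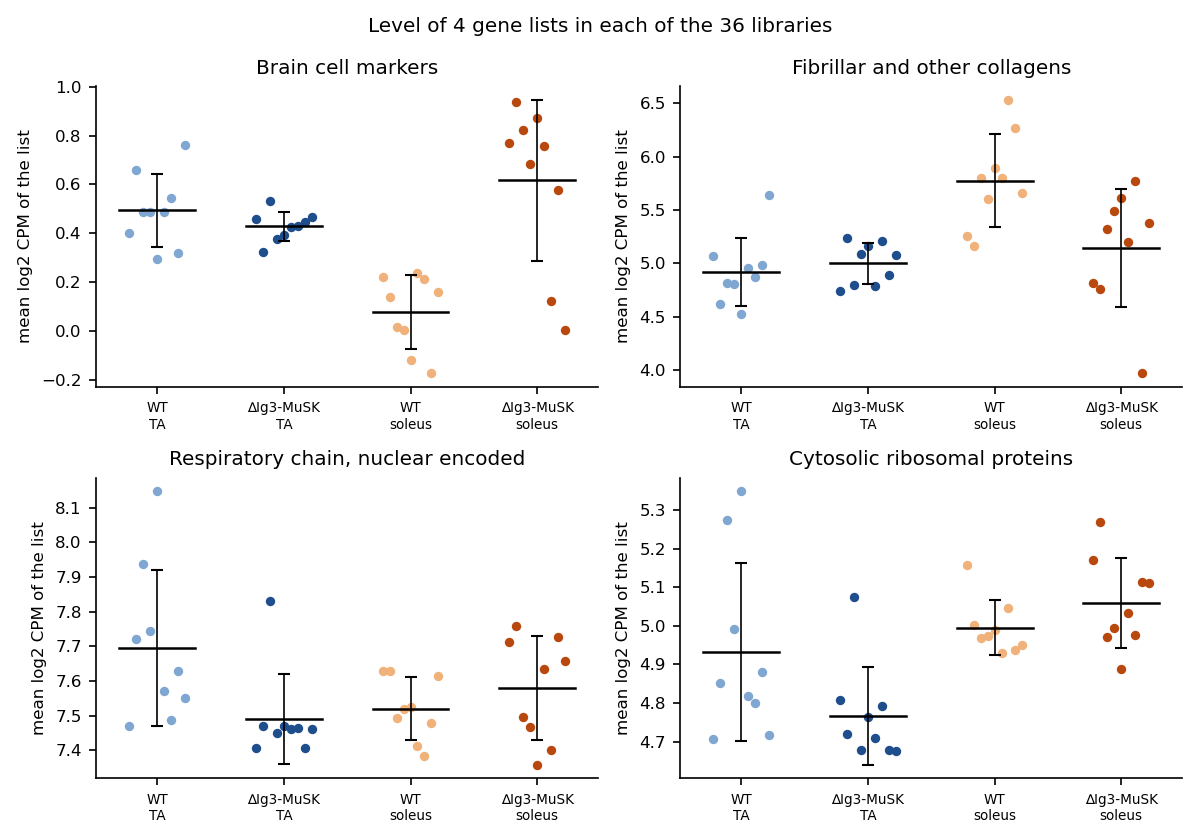
Mean log2 CPM of brain cell markers, collagens, nuclear-encoded respiratory chain genes and cytosolic ribosomal proteins in each library by group, with the mean and SD (n = 9). Brain cell markers are above the WT soleus range in 7 mutant soleus libraries, collagens are lower in the mutant soleus, and WT TA libraries 3 and 5 are the highest TA points for respiratory chain and ribosomal genes.

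Respiratory chain genes, which build the complexes of oxidative phosphorylation, gave the largest number of positive interactions. Of 76 nuclear-encoded members, 62 were positive at an unadjusted p under 0.05 (13.7% of all genes) and 0 negative, with a median of 0.29. The difference lay in the TA, where 68 were lower at an unadjusted p under 0.05 (14.1% of all genes), 11 of them at an adjusted p under 0.05, with a median of -0.23, against 0 in either direction and a median of 0.06 in the soleus. Ndufv2, a subunit of complex I, fell by 0.32 in the TA (edgeR adjusted p = 0.0467), from 225 to 437 CPM (median 258) in WT to 204 to 310 CPM (median 220), and had an interaction of 0.42.

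These counts were smaller without WT TA libraries 3 and 5. Without both, 23 of the 76 were positive (6.85% of all genes) with a median of 0.16, and the interaction of Ndufv2 was 0.25. The mean log2 CPM of the list ranged from 7.47 to 8.15 in WT TA and from 7.41 to 7.83 in ∆Ig3-MuSK TA. Cytosolic ribosomal proteins followed the same course, with 49 of 75 positive (13.7% of all genes), 0 negative and a median of 0.26. Without both libraries 19 were positive (6.85% of all genes), with a median of 0.13. Rpl15, of the large subunit, fell by 0.25 in the TA (edgeR adjusted p = 0.042), with 7 mutant libraries below all WT. Proteasome subunits had 12 of 31 positive (13.7% of all genes), and 2 without both libraries (6.85% of all genes).

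The 13 mitochondrially encoded respiratory chain genes differed in that their soleus effect took part. Of these, 10 were positive (13.7% of all genes) and 0 negative, with a median interaction of 0.36. In the soleus 9 were higher at an unadjusted p under 0.05 (7.22% of all genes), with a median of 0.24. The median in the TA was -0.12. mt-Nd3, of complex I, had log2 fold changes of 0.27 in the soleus and -0.26 in the TA. Without WT TA libraries 3 and 5 the count of positive members was 2 (6.85% of all genes), with a median of 0.24. With the length and GC trend removed it was 1 (12.1% of all genes), with a median of 0.08.

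The interaction varied with transcript length across all genes. In 15443 genes with at least 1 CPM, split into 10 bins by the longest annotated transcript, the median interaction went from 0.20 in the shortest bin (median length 459 bases) to -0.22 in the longest (7914 bases). The shortest bin held 538 positive and 62 negative interactions at an unadjusted p under 0.05, and the longest 38 and 619. The slope lay in the TA, whose median effect went from -0.14 to 0.18, while that of the soleus went from 0.06 to -0.02. Processed pseudogenes, which are short, had 431 positive and 58 negative of 2019, with a median of 0.15.

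Each library was then given a slope of its log2 CPM on transcript length, relative to the mean of all libraries. The slope was -0.15 per doubling of length in WT TA library 5, -0.12 in WT TA library 3 and -0.05 in ∆Ig3-MuSK TA library 3, and the other mutant TA libraries lay between 0.03 and 0.05. The soleus groups ranged from -0.04 to 0.03 in WT and from -0.07 to 0.03 in ∆Ig3-MuSK. With a smooth trend on length and GC content removed from each library, an alternative chosen after seeing the data, the medians of the shortest and longest bins were 0.05 and -0.01. Under it 4 genes, all positive, had an adjusted p under 0.05, and 4119 had an unadjusted one, 2515 positive (12.1%) and 1604 negative (7.73%). The brain marker list then had 15 of 20 positive, the respiratory chain list 45 of 76, the ribosomal list 37 of 75 and the matrix list 10 of 28 negative. The cause of this trend was not tested.

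**Figure D4:**
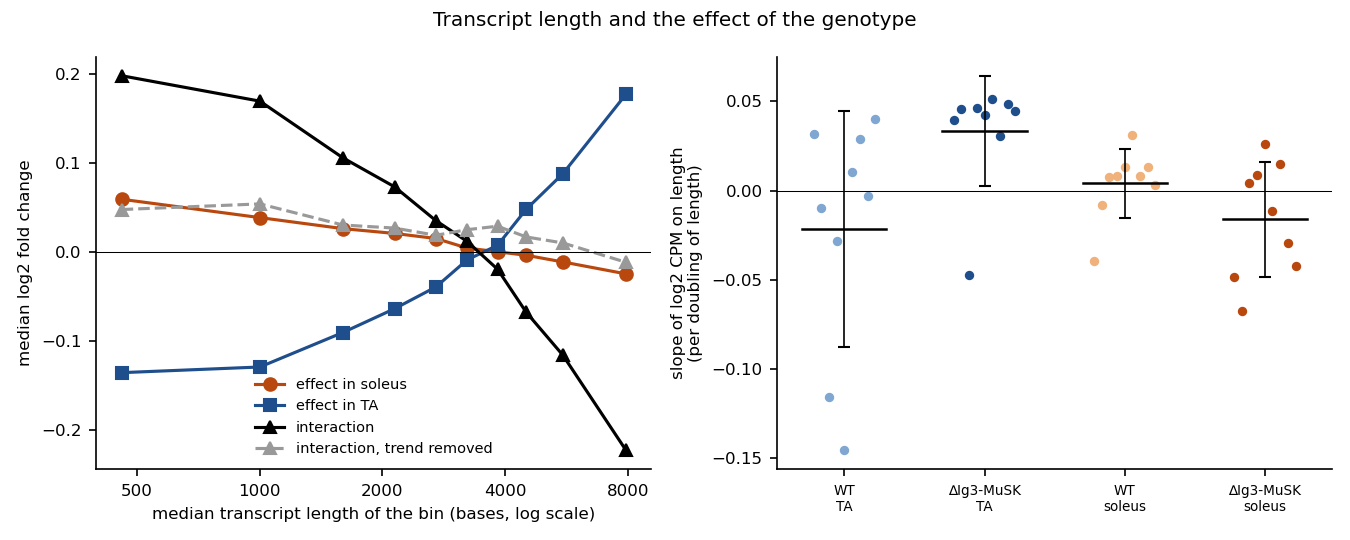
Left, median log2 fold change in the soleus and the TA and median interaction in 10 bins of transcript length (bases, log scale), with the interaction after the length and GC trend was removed as a dashed line. Right, slope of log2 CPM on transcript length in each library with the mean and SD (n = 9), where WT TA libraries 3 and 5 lie lowest.

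The remaining lists were described in the same way. Of 19 clock genes, 10 were higher and 4 lower in the soleus at an unadjusted p under 0.05 (7.22% and 7.92% of all genes), and 10 were higher and 3 lower in the TA (14.3% and 14.1%). A positive interaction was found for 3 of them (13.7% of all genes) and a negative one for 0. Bhlhe41, a clock repressor and the positive member of smallest p, rose by 0.46 in the soleus (edgeR adjusted p = 0.0034), from 19.8 to 30.2 CPM (median 23.5) to 27.3 to 40.4 CPM (median 33.0), against -0.01 in the TA. Nr1d2, a repressor of the REV-ERB family, rose by 0.48 in the soleus and 0.25 in the TA (edgeR adjusted p = 0.00013 and 0.038). Glucocorticoid and fasting response genes had 0 of 25 with an unadjusted interaction p under 0.05 (24.9% of all genes), with a median effect of 0.14 in each muscle. Chaperones had 2 of 30 positive (13.7% of all genes). At an unadjusted p under 0.05, 13 were lower in the soleus and 14 in the TA (7.92% and 14.1% of all genes).

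Immediate early genes, which respond to activity and handling within minutes, were negative in 5 of 25 (11.2% of all genes), with a median of -0.25. The count was 2 (without WT soleus library 6) to 9 (without WT TA library 9) with single libraries left out, and 2 with the length and GC trend removed. Fosl2, an AP-1 subunit, fell by 0.53 in the soleus (edgeR adjusted p = 0.023) against -0.04 in the TA. Genes of the neuromuscular junction and of the denervation response were negative in 6 of 24 (11.2% of all genes) and positive in 0, with a median of -0.17. The negative count was 3 (without WT TA library 3) to 10 (without WT soleus library 1) with single libraries left out and 4 without WT TA libraries 3 and 5. With the length and GC trend removed 2 were negative and 1 positive, with a median of -0.05. The members with a negative interaction included Agrn, which encodes agrin, at -0.41, Utrn, the synaptic relative of dystrophin, at -0.46, and Chrnd, an acetylcholine receptor subunit, at -0.44. With 1 surrogate variable, a hidden factor estimated from the counts, added to the fit, the interactions were -0.056 for Agrn and -0.045 for Utrn.

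Fast fibre genes were positive in 7 of 20 (13.7% of all genes), with a median of 0.29. Slow fibre genes had 0 of 20 in either direction (24.9% of all genes) and a median of 0.00. Mylpf, the fast myosin light chain, had log2 fold changes of 0.28 in the soleus and -0.14 in the TA. Summed over the fast list, CPM ranged from 39219 to 70887 in WT soleus and from 50463 to 69167 in ∆Ig3-MuSK soleus, so the mutant lay within the WT range. The count of positive fast fibre genes was 14 without WT soleus library 1 and 2 without WT TA libraries 3 and 5. Glycolysis genes were positive in 7 of 25 and negative in 2, and fatty acid genes positive in 3 of 25, against 13.7% and 11.2% of all genes. Glycolysis genes without WT TA libraries 3 and 5 were positive in 2 and negative in 1, and fatty acid genes positive in 2. Over all genes 6.85% were then positive and 7.25% negative. Splicing and ribosome biogenesis genes were positive in 7 and negative in 3 of 36 (13.7% and 11.2% of all genes). Without both libraries they were positive in 3 and negative in 2 (6.85% and 7.25% of all genes).

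**Figure D5:**
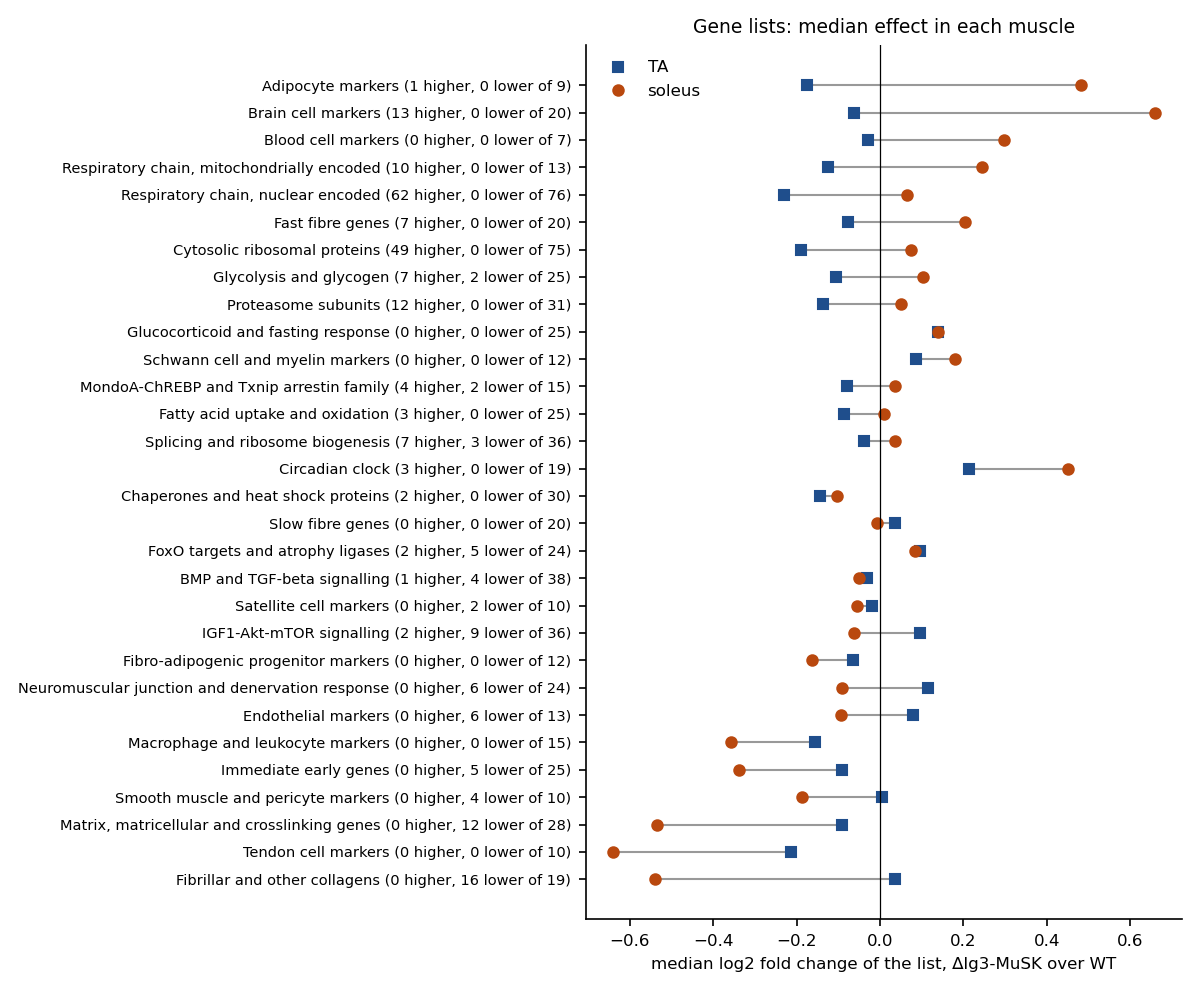
Median log2 fold change (∆Ig3-MuSK over WT) of each of the 30 gene lists in the TA (squares) and the soleus (circles), ordered by the median interaction, with the number of members that had a positive or negative interaction at an unadjusted p under 0.05. Brain cell markers and collagens lie furthest apart in opposite directions among the lists with over 10 members called.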

How the data were processed

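Total RNA of whole TA and soleus muscles was sequenced. The authors trimmed reads with Trimmomatic, aligned them to the mouse genome (GRCm38) with GSNAP and deposited htseq-count read counts per Ensembl gene, whole numbers without normalization. The annotation release is not given in the sources used here. The tables of both muscles were joined by gene ID, with 0 columns of other samples, and symbols were found for 51719 of 51912 IDs.

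Low counts were removed by filterByExpr (at least 10 counts, 15 in total), and the rest were scaled with TMM factors (0.811 to 1.19) and fitted over 36 libraries with edgeR 4.0.16 (glmQLFit, glmQLFTest) in R 4.3.3, with group means and no covariates, and p-values were adjusted by the Benjamini-Hochberg method over all genes. Log2 CPM used a prior count of 2. At 43492062 to 78660422 counts per library, the weakest genes named rest on few counts (3 to 69 for Gad2). On simulated counts the test found 94% of 200 genes simulated with an interaction, of 20610 tested, and called 0 where none was changed. The simulated interactions were large, with a median estimated size of 0.986, against a median size of 0.18 over all genes in the data. Genes were drawn independently and without a trend on transcript length. The simulation therefore gives no detection rate for smaller interactions and no error rate under such a trend.

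The genes named are Musk, Slc1a2, Irs2 and Txnip, the 8 of smallest interaction p in each direction, the 6 of smallest interaction p in each pattern of opposite effects, up to 10 called with the label number as a random block, and 3 per list, with at least 1 CPM and no predicted gene models outside the lists, apart from 1 gene that is not reported here. Members of lists named beyond these, and Actg1 and Gm15441, were chosen after their values were seen. The members and lists were chosen with earlier results of these data known. The 30 lists hold 705 genes, 697 of them tested.

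Alternatives were DESeq2 1.42.0, limma-voom (limma 3.58.1) with quality weights, robust quasi-likelihood, other scaling factors, TMM without mitochondrially encoded genes, other filters, a 1.2-fold minimum, each muscle alone, blocks of replicate or label number, a fit with 1 surrogate variable (sva 3.50.0) and leaving out every library in turn. Leaving out WT TA libraries 3 and 5 together and removing a spline trend on transcript length and GC content were chosen after seeing the data.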

Additional observations from a re-analysis of the deposited data

Results flagged for a closer look

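In 84 groups of 9 libraries, 3 held a library whose gap to its nearest neighbour exceeded, as a share of the range of the group, Dixon's critical value for 9 values, where chance flags about 1 in 20 groups. In all 3 this was ∆Ig3-MuSK TA library 3. It was the highest of its group for Musk, at 4.01 CPM, and for Fn3k, at 13.6 CPM, and the lowest for Slc12a7, at 8.32 CPM.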

How the results depend on the processing

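The count of interaction genes at an adjusted p under 0.05, 0 with edgeR, was also 0 with upper-quartile or RLE factors, robust quasi-likelihood, TMM without mitochondrially encoded genes, no filter, a 1.2-fold minimum and 1 surrogate variable. It was 1049 with DESeq2, 1352 with limma-voom and quality weights, 4 with at least 10 counts in every library and 4 with the length and GC trend removed. Leaving out single libraries gave 0 to 1484 interaction genes (1484 without WT TA library 9, 1055 without ∆Ig3-MuSK TA library 3, 99 without WT soleus library 1, and 1 to 10 without WT soleus 2 or 7, ∆Ig3-MuSK soleus 7 or 9, WT TA 1 or 8, or ∆Ig3-MuSK TA 9), and 4085 to 6205 at an unadjusted p under 0.05. The cause was not tested.

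Counts in the soleus (366) were 577 with DESeq2, 1530 with quality weights, 216 with no filter, 609 with 1 surrogate variable, 594 without WT TA libraries 3 and 5 and 227 with the soleus alone, and 167 (without WT soleus library 5) to 823 (without WT soleus library 1) with single libraries left out. Counts in the TA (982) were 2624 with DESeq2, 257 with no filter, 1638 with at least 10 counts, 3 with 1 surrogate variable, 340 with the length and GC trend removed, 6 without WT TA libraries 3 and 5 and 3 with the TA alone, and 12 (without ∆Ig3-MuSK TA library 6) to 3710 (without ∆Ig3-MuSK TA library 3) with single libraries left out. Changes by over 1.5 times came from 13 soleus libraries (not WT 3 or 9 or ∆Ig3-MuSK 5, 6 or 9) and from 16 TA libraries (not WT 8 or ∆Ig3-MuSK 7). Genes with opposite effects (1.1% of those tested) were 2.48% with quality weights, 0.149% with 1 surrogate variable, 0.456% without WT TA libraries 3 and 5 and 0.691% (without ∆Ig3-MuSK soleus library 2) to 2.16% (without WT TA library 9) with single libraries left out, with 1.87% without WT soleus library 1. With 1 surrogate variable 1077 interactions, and without WT TA libraries 3 and 5 2938, had an unadjusted p under 0.05.

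The replicate block joined libraries of both muscles by the replicate number in their titles, within each genotype. With it the fit gave 0 interaction genes at an adjusted p under 0.05 and 4951 unadjusted. Many libraries joined in this way carry different label numbers, so that fit cannot decide whether libraries of the same label number are paired. For 32 libraries a library of the other muscle has the same label number. As a random block in limma-voom it gave 9, with Slc1a2, Hpca, Ramp1, Det1, Osbpl8 and Slc12a7 among them, and as a fixed block 1, Bhlhe41. The deviations of libraries with the same label number correlated at 0.0217 to 0.461, over 0.1 in 12 of 16 pairs, and 19 of 32 libraries correlated best with their own number. This is a hint of pairing from the data and not from the design. The labels state no shared animal, so the main values use no block. A correlation of under 0.1 in some pairs does not show that the animals differ. If animals were shared, the main p-values leave that pairing out.

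Over the alternatives 8 of 1586 gene values changed sign. The interaction of Musk was -0.016 with the replicate block, -0.017 and -0.040 with the label number as a random and a fixed block, and -0.030, -0.065, -0.021 and -0.010 without ∆Ig3-MuSK soleus libraries 4 and 5 and WT TA libraries 1 and 7 in turn, within a range of -0.065 to 0.094. With 1 surrogate variable it was 0.021 for Tead1, -0.014 for Psmb1, -0.012 for Etfb and 0.085 for Pax7, and for Tead1 0.0092 with the length and GC trend removed. Depth limits Slc1a2 (50 to 186 counts per library), Hpca (22 to 125) and Gad2 (3 to 69).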
